A study of Rattus norvegicus with 12 samples.

Results

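Dorsal root ganglia hold the cell bodies of the sensory neurons that carry touch, limb position, temperature and pain, and adult sensory neurons keep receptors for 2 families of growth factors. This account follows 7 genes for such receptors, taken by their official symbol (Ntrk2, Ntrk3, Ngfr, Ret, Gfra1, Gfra2 and Gfra3) from the 25252 genes in the table. All 7 were in the table, with 13 of its 30275 transcripts, and all 7 passed the filter on low values. The rule uses no measured value, but the receptors were chosen with earlier results of these data known.

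RNA came from ganglia of 12 Sprague Dawley rats with the genotype given as Wild, 4 biological replicates in each of 3 groups. Vehicle rats were given saline that held 0.1% Tween 20 and 1% DMSO. Cisplatin rats had this platinum chemotherapy drug, which harms sensory nerves, by intraperitoneal injection of 3 mg/kg on days 0, 7 and 14. The third group had the same cisplatin and, daily from day -1 to day 20, intraperitoneal CYM-5478, a compound that activates S1P2, which is 1 of the receptors for the lipid sphingosine 1-phosphate. Its dose stands as 0.1 mg/kg in the sample labels and as 1 mg/kg in the treatment protocol. Every rat that had CYM-5478 also had cisplatin, so an effect of CYM-5478 by itself could not be measured. The study asks whether S1P2 activation protects against cisplatin neuropathy.

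Neurotrophins, among them BDNF, neurotrophin 3 and neurotrophin 4, act through Trk receptor tyrosine kinases. Each Trk prefers its own ligands, while the p75 receptor, product of Ngfr, binds all of them, can work with a Trk and can also signal alone. Ligands of the GDNF family bind a coreceptor that is anchored to the outer membrane by a lipid, and the pair of ligand and coreceptor engages the shared kinase Ret. In sensory ganglia the receptors mark kinds of neurons: TrkB is known from light-touch neurons, TrkC from neurons of limb position, and Ret from nonpeptidergic pain neurons and a class of touch neurons.

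The FPKM of a library (fragments per kilobase of transcript, scaled to sequencing depth) had a sum of 593 to 609 kFPKM in vehicle, 641 to 676 kFPKM in cisplatin and 596 to 626 kFPKM with CYM-5478 (k for kilo). Absolute depth is unknown. The steps between the lowest values of genes with 1 transcript put the libraries at 0.901 to 1.54 times the depth of vehicle replicate 1. Spearman correlations between libraries ran from 0.963 to 0.987. All 18 pan-neuronal markers, the defining genes of the labelled tissue, were detected, and their FPKM summed to 5362 to 6905 in vehicle, 3203 to 4790 in cisplatin and 5190 to 6966 with CYM-5478. Markers of skeletal muscle summed to 66.9 and 30.9 FPKM in cisplatin replicates 2 and 3, against 8.78 to 23.8 in the other 10 libraries. Neutrophil markers ran from 216 FPKM in CYM-5478 replicate 3 to 2392 in CYM-5478 replicate 2.

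Ngfr was the most abundant of the 7 receptors and Gfra3 the least. FPKM accounts for transcript length, so levels can be set side by side. In vehicle ganglia the mean level was 132.6 ± 15.9 FPKM for Ngfr (SD, n = 4), 92.0 ± 13.1 for Ret and 66.3 ± 3.01 for Gfra1. It was 54.5 ± 1.96 for Ntrk3, 38.9 ± 5.57 for Gfra2, 21.9 ± 1.25 for Ntrk2 and 13.1 ± 2.99 for Gfra3. The 4 vehicle libraries of each gene in this order lay wholly above those of the next, so no neighbours overlapped. Among the 16753 genes tested, Ngfr ranked 689 and Gfra3 ranked 7515 by mean level over the 12 libraries.

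Of the 7 receptors, 4 (Ntrk2, Ngfr, Ret and Gfra3) had lower levels after cisplatin than after vehicle, 0 were higher, and Ntrk3, Gfra1 and Gfra2 did not pass the test. The same 4 were higher with CYM-5478 than with cisplatin alone. Both comparisons use the same cisplatin libraries, so they are not independent of each other. Differences are given on the log2(FPKM + 0.5) scale with limma's Benjamini-Hochberg adjusted p over all genes tested, and a gene passed where that p was under 0.05. For cisplatin against vehicle 10.7% of genes tested passed, 7.98% as lower and 2.73% as higher. For CYM-5478 with cisplatin against cisplatin 5.62% passed, 4.53% as higher and 1.09% as lower, and 4% of genes were lower in the first comparison and higher in the second. The libraries of Ntrk2, Ngfr, Ret and Gfra3 did not overlap in either comparison, as was so in the same direction for 11.5% of all genes in the first and 10.4% in the second. The median log2 difference of the 7 receptors was -0.44 in the first comparison, beside 0.02 over all genes tested, and 0.36 in the second, beside -0.02.

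**Figure D1:**
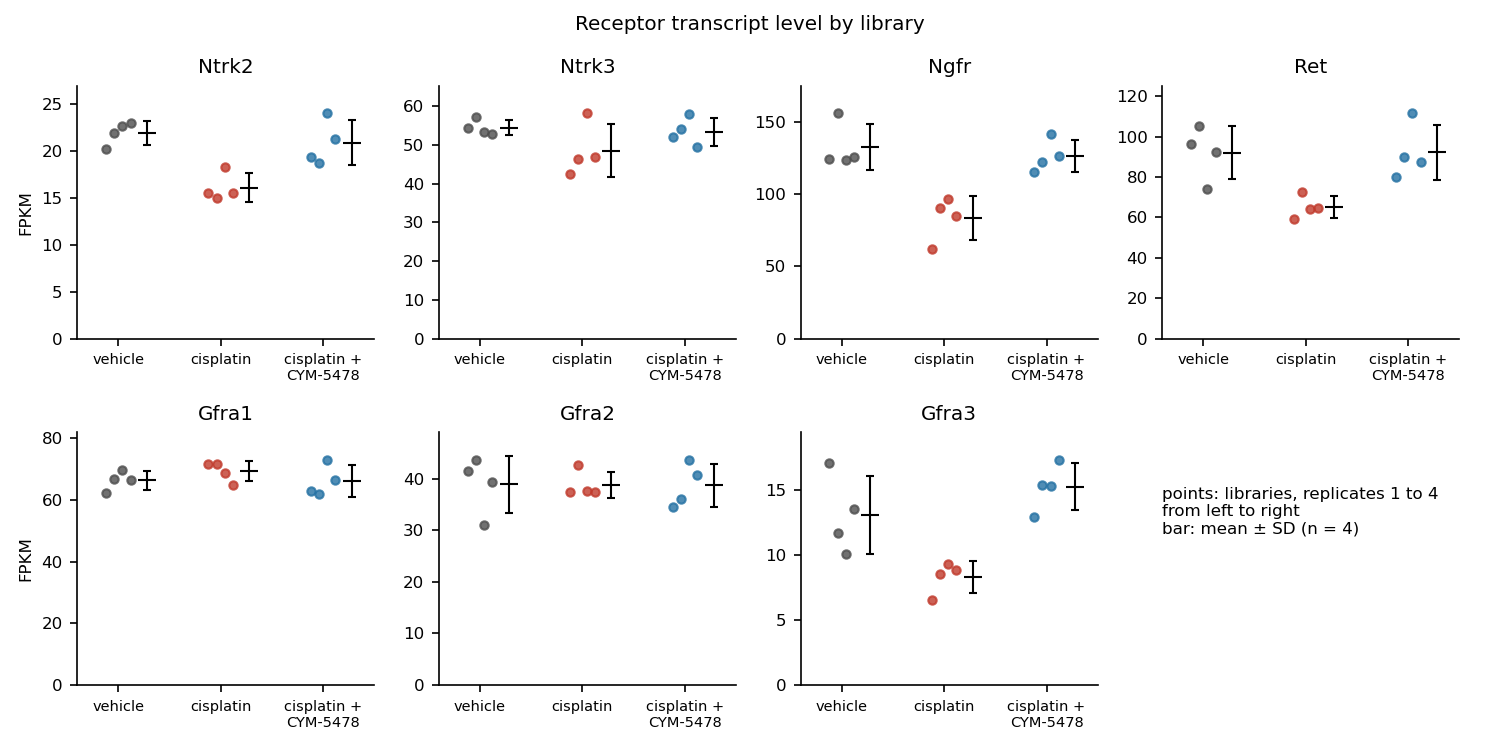
FPKM of the 7 receptor genes (vertical axes, each from 0) in the 12 libraries, with a panel for each gene. Points are libraries in replicate order from left to right, and bars are mean ± SD (n = 4). For Ntrk2, Ngfr, Ret and Gfra3 every cisplatin point lies below all vehicle and all CYM-5478 points, while for Ntrk3, Gfra1 and Gfra2 the groups overlap.

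Ntrk2 encodes TrkB, the receptor of BDNF and neurotrophin 4. Its level was 20.2, 21.9, 22.6 and 23.0 FPKM in vehicle replicates 1 to 4, 15.5, 15.0, 18.3 and 15.6 in cisplatin, and 19.4, 18.7, 24.1 and 21.3 with CYM-5478. Cisplatin replicate 3 was the highest of its group but lay below all 8 libraries of the other groups. Ntrk2 fell by 0.44 with cisplatin (log2, SE 0.086, limma adjusted p = 0.0193) and was 0.36 higher with CYM-5478 than with cisplatin alone (SE 0.086, limma adjusted p = 0.0404). With CYM-5478 the libraries overlapped those of vehicle (log2 difference -0.08, 95% confidence interval -0.26 to 0.11, limma adjusted p = 0.981). With libraries weighted by their quality, the call for CYM-5478 against cisplatin was lost (limma adjusted p = 0.0516).

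Ngfr encodes the p75 receptor, a member of the tumour necrosis factor receptor family with a death domain. It measured 124.5, 156, 123 and 126 FPKM in vehicle, 62.2, 90.3, 96.9 and 85.0 in cisplatin, and 115, 122.5, 142 and 127 in the CYM-5478 group. The lowest vehicle library and the lowest CYM-5478 library both stood above the highest cisplatin library. Its log2 difference was -0.67 for cisplatin against vehicle (SE 0.13, limma adjusted p = 0.0189) and 0.61 for CYM-5478 against cisplatin (SE 0.13, limma adjusted p = 0.0395). Against vehicle, the difference with CYM-5478 was -0.06 (95% confidence interval -0.34 to 0.22, limma adjusted p = 0.990).

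Ret, the kinase shared by all ligands of the GDNF family, stood at 96.3, 105, 74.0 and 92.4 FPKM in vehicle, 59.2, 72.5, 64.3 and 64.7 in cisplatin, and 80.0, 90.1, 112 and 87.4 in the CYM-5478 group. Vehicle replicate 3 and cisplatin replicate 2 came closest to each other without crossing. Ret fell by 0.49 with cisplatin (log2, SE 0.12, limma adjusted p = 0.0279) and rose by 0.49 with CYM-5478 relative to cisplatin (SE 0.12, limma adjusted p = 0.0406). Compared with vehicle the CYM-5478 libraries differed by 0.01 (95% confidence interval -0.25 to 0.26, limma adjusted p = 0.999).

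Gfra3, the coreceptor of artemin that is known from peptidergic pain neurons, had the lowest level of the 7 genes and the largest log2 difference of the 7 between CYM-5478 and cisplatin. Its values were 17.0, 11.7, 10.0 and 13.5 FPKM in vehicle, 6.53, 8.51, 9.30 and 8.81 in cisplatin, and 12.9, 15.4, 15.3 and 17.3 in the CYM-5478 group. Vehicle replicate 3 exceeded cisplatin replicate 3 by under 1 FPKM, whereas the gap from cisplatin to CYM-5478 libraries was wider. The log2 difference was -0.61 for cisplatin against vehicle (SE 0.15, limma adjusted p = 0.0300) and 0.84 for CYM-5478 against cisplatin (SE 0.15, limma adjusted p = 0.0395). Against vehicle it was 0.23 with CYM-5478 (95% confidence interval -0.10 to 0.57, limma adjusted p = 0.931), and the libraries overlapped. Its call for cisplatin against vehicle was lost when the 8 libraries of that comparison were fitted alone (limma adjusted p = 0.0587).

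Gfra1, the coreceptor of GDNF, did not pass in any comparison. It ran from 62.4 to 69.7 FPKM in vehicle, from 64.9 to 71.8 in cisplatin and from 62.0 to 73.1 with CYM-5478. Its log2 difference was 0.06 for cisplatin against vehicle (95% confidence interval -0.07 to 0.19, limma adjusted p = 0.529) and -0.07 for CYM-5478 against cisplatin (-0.20 to 0.06, limma adjusted p = 0.512).

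Gfra2, the coreceptor of neurturin, also stayed on the near side of the threshold. Vehicle libraries held 31.0 to 43.7 FPKM, cisplatin libraries 37.4 to 42.7 and CYM-5478 libraries 34.5 to 43.7. The log2 difference was 0.01 for cisplatin against vehicle (95% confidence interval -0.23 to 0.24, limma adjusted p = 0.982) and -0.01 for CYM-5478 against cisplatin (-0.24 to 0.23, limma adjusted p = 0.982). The interval admits a fall of up to 0.23, which is smaller than the fall measured for Ret.

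Ntrk3 encodes TrkC, the receptor of neurotrophin 3. It was 54.5, 57.3, 53.5 and 52.9 FPKM in vehicle, 42.5, 46.5, 58.3 and 46.9 in cisplatin, and 52.1, 54.2, 58.0 and 49.4 in the CYM-5478 group. Of the 4 cisplatin libraries 3 lay below every vehicle library and replicate 3 lay above all of them. The log2 difference was -0.18 for cisplatin against vehicle (95% confidence interval -0.36 to 0.01, limma adjusted p = 0.199) and 0.14 for CYM-5478 against cisplatin (-0.04 to 0.33, limma adjusted p = 0.321). Without cisplatin replicate 3 it was -0.27 for cisplatin against vehicle, with a limma adjusted p of 0.0276, the only 1 of 12 single-library omissions in which it passed. It also passed on the TPM scale, where each library is divided by its sum (-0.30, limma adjusted p = 0.0384). On that scale 3158 of 17586 genes passed as lower, against 1337 of 16753 before, and the median difference of all genes was -0.09.

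**Figure D2:**
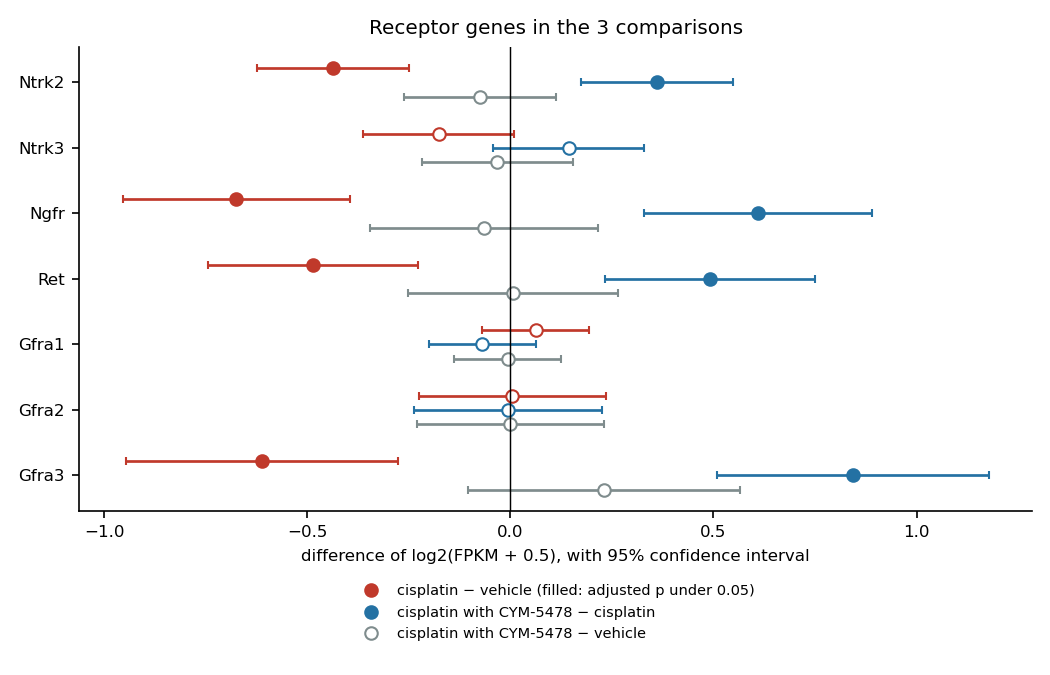
Log2 differences of the 7 receptors (horizontal axis, log2(FPKM + 0.5)) with 95% confidence intervals in the 3 comparisons of groups of 4 libraries. Filled points have a limma adjusted p under 0.05. The filled points are those of Ntrk2, Ngfr, Ret and Gfra3, from -0.67 to -0.44 for cisplatin against vehicle and from 0.36 to 0.84 for CYM-5478 against cisplatin.

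For CYM-5478 with cisplatin against vehicle, 0 of the 7 receptors passed limma's test, as did 0 of all genes tested (0%, with 970 genes or 5.79% at an unadjusted p under 0.05). All 7 receptors overlapped between the groups, and 3.45% of genes did not. The limma p before adjustment was lowest for Gfra3, at 0.158. The intervals were narrowest for Gfra1 (-0.14 to 0.12) and widest for Gfra3, so a remaining deficit of up to 0.34 in Ngfr or 0.25 in Ret lies within them.

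The calls were close to the threshold and depended on single libraries. For cisplatin against vehicle limma called 4 of the 7, and 0 of them without vehicle replicate 2 or without cisplatin replicate 4. The loss ran through the whole table: of all genes tested limma called 3 without vehicle replicate 2 and 0 without cisplatin replicate 4 (3678 and 4082 at an unadjusted p under 0.05). It called 2 (Ntrk2 and Ngfr) without vehicle replicate 1, vehicle replicate 4 or cisplatin replicate 1. Of the 16761 to 16763 genes tested in these fits, limma called 921, 1070 and 581 as lower, in that order. For CYM-5478 against cisplatin it called 0 without vehicle replicate 1, cisplatin replicate 1, cisplatin replicate 4, or CYM-5478 replicate 2, 3 or 4, and in each of these 6 fits it also called 0 of all genes (3011 to 4031 at an unadjusted p under 0.05). It called 2 receptors (Ngfr and Gfra3) without vehicle replicate 4, lost Ntrk2 alone without vehicle replicate 3 or cisplatin replicate 2, and lost Ret alone without cisplatin replicate 3. Of the 16743 to 16763 genes tested in these fits, 490, 341, 846 and 772 were called as higher, in that order. The differences themselves moved less. Over the 12 omissions Ngfr ran from -0.75 to -0.54 and from 0.48 to 0.69 in the 2 comparisons, Ntrk2 from -0.50 to -0.41 and from 0.29 to 0.42, Ret from -0.59 to -0.42 and from 0.39 to 0.56, and Gfra3 from -0.72 to -0.48 and from 0.74 to 0.92. The limma adjusted p of these 4 genes reached at most 0.0895 in the first comparison and 0.126 in the second. Without the cisplatin replicates with muscle RNA (2 and 3), an alternative chosen after seeing the data, limma called 5 receptors as lower in the first comparison and 4 as higher in the second, beside 1427 and 1178 of 16749 genes. Without CYM-5478 replicates 2 and 3, chosen in the same way for their neutrophil markers, it called 4 as lower and 0 as higher, beside 1194 and 0 of 16730 genes (2068 at an unadjusted p under 0.05 in the second).

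The sum of FPKM was higher in cisplatin libraries, so the scaling moved all genes. On the TPM scale the median log2 difference of all genes was -0.09 for cisplatin against vehicle and 0.08 for CYM-5478 against cisplatin, in place of 0.02 and -0.02. Relative to that median, Ngfr was -0.70, Gfra3 -0.65, Ret -0.52 and Ntrk2 -0.47 in the first comparison, against -0.69, -0.63, -0.51 and -0.46 with the median-ratio scaling. Gfra1 and Gfra2, near 0 on both scales, had the opposite sign (-0.06 and -0.11 for cisplatin against vehicle on the TPM scale). Over all genes, 3.54% of the calls for cisplatin against vehicle were higher on the TPM scale, against 25.5% with the median-ratio scaling, and 98.1% against 80.7% for CYM-5478 against cisplatin.

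Within each library the receptors that form 1 complex could be compared directly, which scaling does not touch. These ratios were chosen after the values above had been seen. The log2 ratio of Ret to Gfra2 was 1.20, 1.26, 1.24 and 1.22 in vehicle, 0.65, 0.76, 0.76 and 0.78 in cisplatin, and 1.20, 1.31, 1.34 and 1.09 in the CYM-5478 group. The cisplatin libraries thus stood apart from all others, and the SD within vehicle was 0.02. The group means differed by -0.49 for cisplatin against vehicle and by 0.50 for CYM-5478 against cisplatin (two-sided exact permutation p = 0.0286 each, the smallest that 4 against 4 can give, and 0.0714 adjusted over 15 tests of 5 ratios). The ratio of Ret to Gfra1 differed by -0.55 and 0.56 and that of Ngfr to Ntrk3 by -0.50 and 0.47, with the same exact p and no overlap. Ret to Gfra3 differed by 0.13 and -0.35 (exact permutation p = 0.6 and 0.0857), and Ngfr to Ntrk2 by -0.24 and 0.25 (exact permutation p = 0.143 and 0.114), with overlap in each case. In these comparisons each ratio without overlap set a called receptor over a receptor that was not called. Those with overlap were between called receptors. The ratios thus restate the calls above and give no separate support. None of the 15 tests passed the adjustment.

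Promoter sequences were at hand for 3 of the 7 genes and are shown because Ret and Gfra3 were lower with cisplatin while Gfra1, of the same receptor system, was not called. Each is the 250 bases before the gene's start on its own strand, from RefSeq, build GRCr8. Capitals mark the letters GGGCGG, or CCGCCC for the other strand, a GC box of the kind bound by Sp1. Ret lies at chr4:153040557-153040806, Gfra1 at chr1:267555812-267556061 and Gfra3 at chr18:26600226-26600475, all 3 on the minus strand.
Ret: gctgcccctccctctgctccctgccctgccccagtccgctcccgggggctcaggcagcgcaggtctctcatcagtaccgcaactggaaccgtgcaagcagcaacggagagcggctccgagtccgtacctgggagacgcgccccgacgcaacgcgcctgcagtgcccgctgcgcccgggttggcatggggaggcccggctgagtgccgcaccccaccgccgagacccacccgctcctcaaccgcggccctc
Gfra1: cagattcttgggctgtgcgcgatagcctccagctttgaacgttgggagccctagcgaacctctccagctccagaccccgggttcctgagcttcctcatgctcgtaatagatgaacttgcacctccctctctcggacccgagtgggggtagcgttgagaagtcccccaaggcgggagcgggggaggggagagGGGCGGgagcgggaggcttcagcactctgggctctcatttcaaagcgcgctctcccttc
Gfra3: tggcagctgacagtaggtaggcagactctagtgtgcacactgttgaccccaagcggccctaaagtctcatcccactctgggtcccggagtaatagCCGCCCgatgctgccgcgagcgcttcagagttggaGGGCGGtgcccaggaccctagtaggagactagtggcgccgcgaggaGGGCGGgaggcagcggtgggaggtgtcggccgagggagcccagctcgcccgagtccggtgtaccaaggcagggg

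The Ret window held 0 such boxes at 72.8% G and C, Gfra1 held 1 at 62% and Gfra3 held 3 at 66%. Among 33469 promoter windows 30.5% held the box, and their median share of G and C was 51.2%. The core letters TGTGGT of sites for Runx factors, which direct receptor choice in developing sensory neurons, were searched on both strands and were in 14.5% of windows and in 0 of these 3. The letters TATAAA of the TATA box were in 12.9% and also in 0 of the 3. These matches describe letters and no binding.

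The table split 2 of the receptors into several transcripts, and 5 of the 13 receptor transcripts passed as lower with cisplatin (8.48% of the 18812 transcripts tested passed, 6.35% as lower). The same number passed as higher with CYM-5478 than with cisplatin alone (3.58% of transcripts passed, 2.96% as higher), and 0 passed for CYM-5478 against vehicle (0%, with 1122 or 5.96% of all transcripts at an unadjusted limma p under 0.05, and 3.48% without overlap). Of these, 4 are the single transcripts of Ntrk2, Ngfr, Ret and Gfra3, and the other is 1 of the 6 of Ntrk3. That transcript, ENSRNOT00000046849, was 4.39, 5.30, 7.09 and 4.36 FPKM in vehicle, 1.43, 2.57, 1.91 and 2.55 in cisplatin, and 5.07, 2.93, 7.07 and 5.68 in the CYM-5478 group. Every cisplatin library lay below all others, as was so for 10.8% of transcripts against vehicle and 9.61% against CYM-5478. It fell by 1.15 with cisplatin (log2, SE 0.24, limma adjusted p = 0.0248) and was 1.09 higher with CYM-5478 than with cisplatin alone (SE 0.24, limma adjusted p = 0.0455). It made up 9.70% ± 2.43 of Ntrk3 FPKM in vehicle (SD, n = 4), 4.40% ± 1.25 in cisplatin and 9.71% ± 3.04 with CYM-5478.

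TrkC is made in forms with and without the kinase, and the files do not say which transcript encodes which. The abundant Ntrk3 transcript ENSRNOT00000041839 was 20.7 ± 2.07 FPKM in vehicle, 14.1 ± 4.64 in cisplatin and 18.7 ± 0.684 in the CYM-5478 group (limma adjusted p = 0.0664 and 0.172 for the first 2 comparisons). Its cisplatin replicates 1 and 4 were near 10 FPKM and the other 2 near 18. The other abundant one, ENSRNOT00000025536, had the opposite order, with 18.2 ± 1.38, 22.1 ± 2.91 and 19.6 ± 3.08 FPKM (log2 0.26, limma adjusted p = 0.179 for cisplatin against vehicle). Its share of Ntrk3 was 33.4% ± 2.22 in vehicle, 46.0% ± 7.35 in cisplatin and 36.8% ± 6.83 in the CYM-5478 group. Of Ntrk3's other transcripts, ENSRNOT00000045165 and ENSRNOT00000046080 overlapped between all groups, and ENSRNOT00000047776 was under 0.012 FPKM in all 4 CYM-5478 libraries but ranged from near 0 to 4.96 in the others.

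Most Gfra1 FPKM lay in 1 transcript, ENSRNOT00000023667 (87.5% ± 1.54 in vehicle, 83.8% ± 2.52 in cisplatin and 87.2% ± 2.53 in the CYM-5478 group), at 58.0 ± 3.28, 58.1 ± 3.52 and 57.6 ± 3.83 FPKM in the 3 groups. The minor one, ENSRNOT00000066428, was 8.28 ± 0.899 in vehicle, 11.2 ± 1.71 in cisplatin and 8.50 ± 2.07 in the CYM-5478 group (log2 0.41 and -0.40, limma adjusted p = 0.130 and 0.169), with overlap. Transcript values are shares of reads that the submitters' software divided among overlapping forms, so they carry an error that the spread between rats shows only in part. Without vehicle replicate 2 or cisplatin replicate 4, all 5 transcript calls for cisplatin against vehicle were lost. All 5 for CYM-5478 against cisplatin were lost without vehicle replicate 1, 3 or 4, cisplatin replicate 1 or 4, or CYM-5478 replicate 2, 3 or 4. Calls over all transcripts in these fits are not reported here, so the losses cannot be read as particular to these transcripts. Over all genes, limma called 1 as higher and 2 as lower without vehicle replicate 2 in the first comparison. In the other fits it called 0 of all genes, except without vehicle replicate 3 or 4 (341 and 490 as higher). The call of ENSRNOT00000046849 was also lost without cisplatin replicate 1 or vehicle replicate 3 in the first comparison, and without cisplatin replicate 3 or CYM-5478 replicate 1 in the second.

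**Figure D3:**
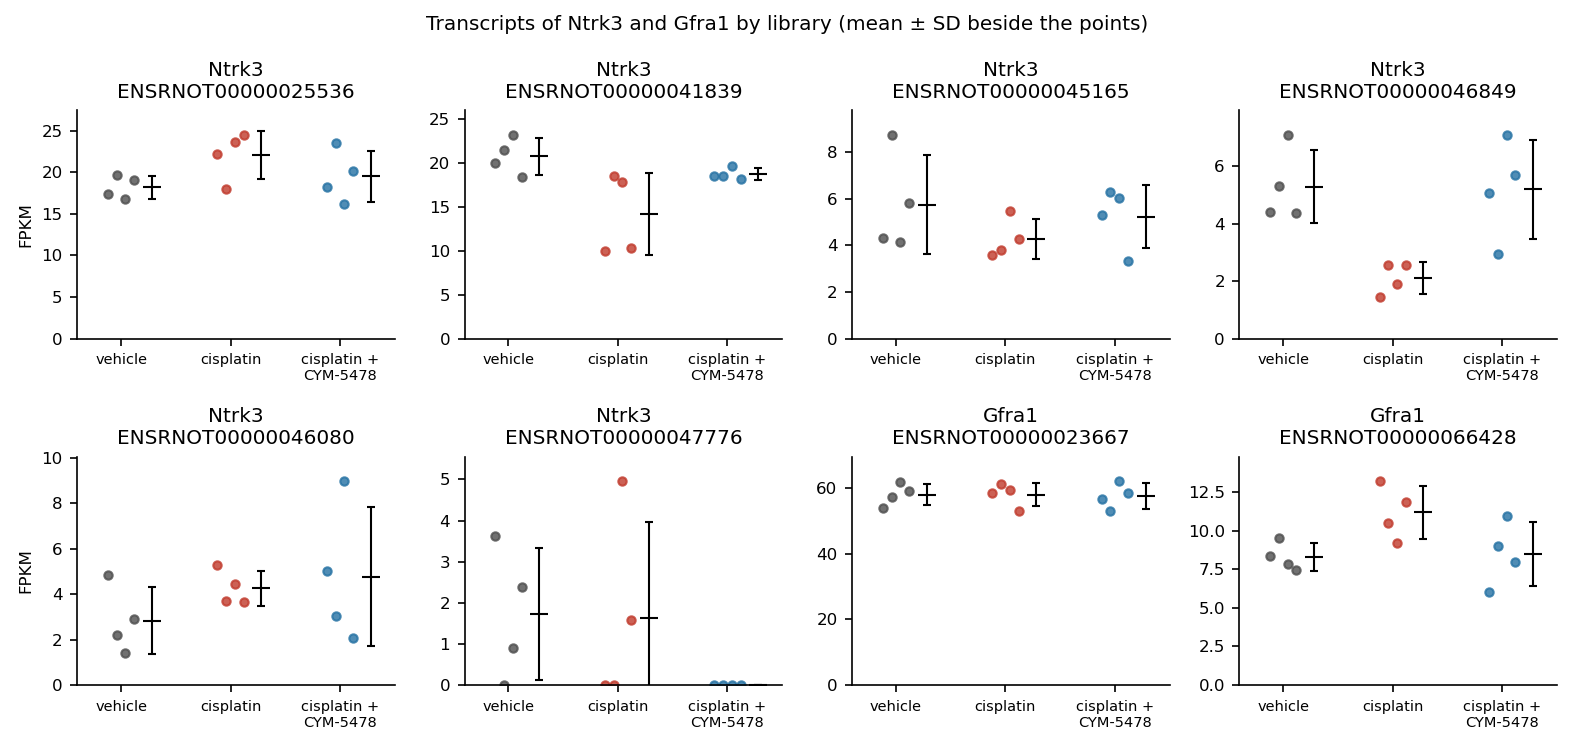
FPKM (vertical axes, from 0) of the 6 transcripts of Ntrk3 and the 2 of Gfra1 in the 12 libraries, by group, with mean ± SD (n = 4) beside the points. The Ntrk3 transcript ENSRNOT00000046849 is below 2.6 FPKM in all cisplatin libraries and above 2.9 in all others.

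Lower levels in bulk tissue can come from fewer cells of a type, from less RNA per cell or from more RNA of other cells. These cannot be told apart here. The score of 18 pan-neuronal markers, averaging their log2 differences from vehicle, was 0 ± 0.151 in vehicle, -0.56 ± 0.272 in cisplatin and 0.000853 ± 0.181 in the CYM-5478 group (SD, n = 4). Its cisplatin libraries lay below those of each other group (two-sided exact permutation p = 0.0286 each, not adjusted, the smallest that 4 against 4 can give). Of the 18 markers 15 passed as lower with cisplatin, among them Uchl1 (log2 -0.67, SE 0.13) and Eno2 (-0.53, SE 0.11), and 3 did not pass. Of all genes tested 7.98% passed as lower. For CYM-5478 against cisplatin 9 of the 18 passed as higher, beside 4.53% of all genes. By sign, 17 of the 18 were negative in the first comparison and all 18 were positive in the second. In cisplatin libraries the log2 difference minus this score was -0.114 ± 0.0594 for Ngfr and -0.0518 ± 0.114 for Gfra3, and Ret stood 0.0743 ± 0.185 and Ntrk2 0.124 ± 0.263 above it. Ntrk3 was 0.384 ± 0.201, Gfra2 0.565 ± 0.236 and Gfra1 0.623 ± 0.295 above it. Over the 12 libraries, which share the groups, Pearson's r with the score was 0.979 for Ngfr, 0.911 for Ret, 0.804 for Ntrk2, 0.800 for Ntrk3, 0.789 for Gfra3, 0.267 for Gfra2 and -0.23 for Gfra1. After group means were taken out it was 0.948 for Ngfr, 0.721 for Ret, 0.726 for Ntrk3, 0.345 for Ntrk2 and 0.352 for Gfra3. For Gfra2 and Gfra1 it was then 0.501 and 0.194. With the score as a covariate limma called 0 of all genes in each of these comparisons (1392 and 810 at an unadjusted p under 0.05), so its 0 calls among the 7 receptors are the same share as over the whole table. Ngfr was -0.16 and Ret -0.13 for cisplatin against vehicle (limma adjusted p = 0.638 and 0.885), while Gfra3 was -0.39 and Ntrk2 -0.32 (limma adjusted p = 0.732 and 0.574). The score itself differs between the groups, so such a fit also removes part of a difference between them.

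**Figure D4:**
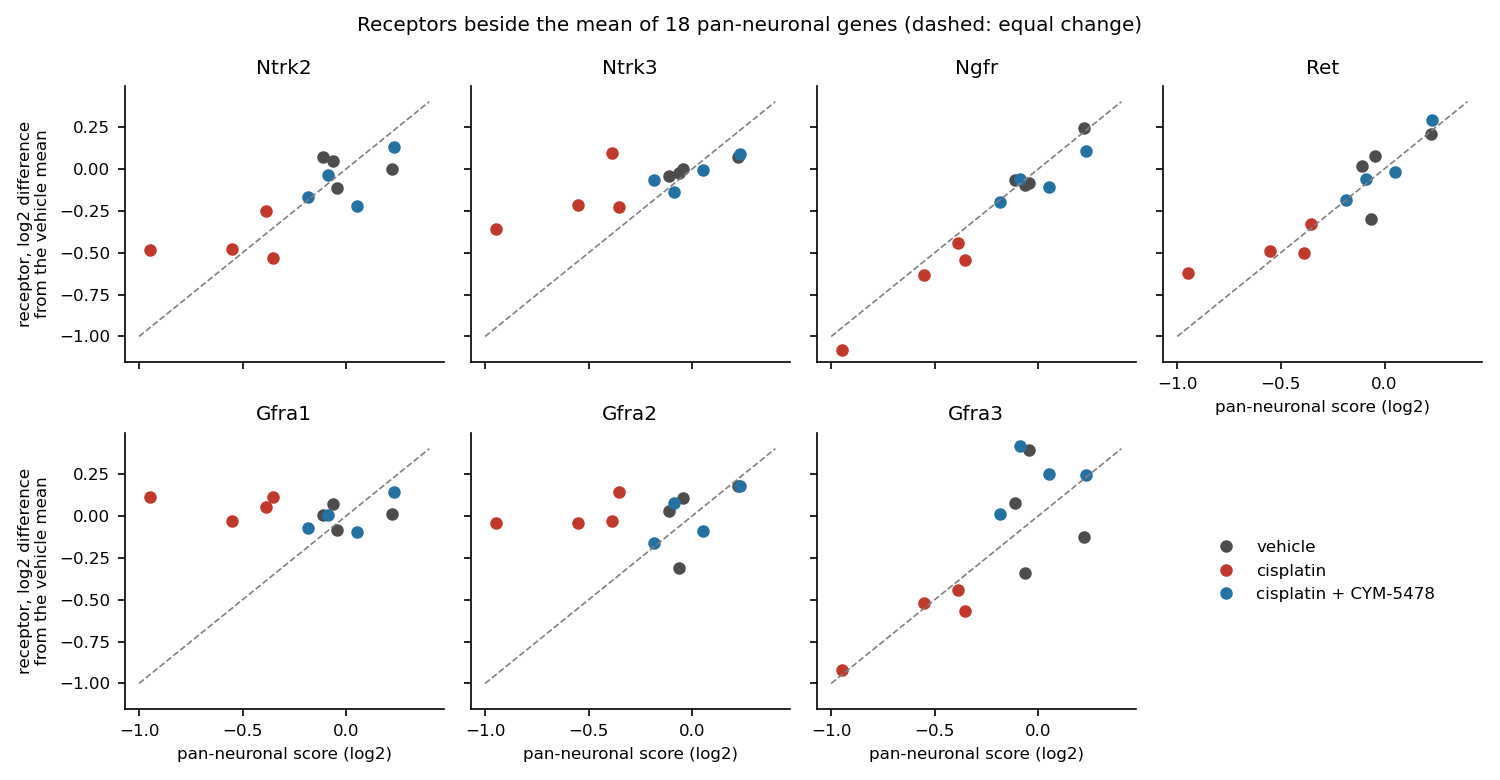
Log2 difference of each receptor from its vehicle mean (vertical axis) against the pan-neuronal score (horizontal axis, log2) in the 12 libraries, colored by group. The dashed line marks equal values. Ngfr follows the line in all 3 groups, and the cisplatin points of Gfra1 and Gfra2 lie above it by 0.35 or more.

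Some glial and connective tissue genes differed in the same libraries, and Ngfr and Gfra1 are known from glia as well as neurons. For cisplatin against vehicle 7.98% of all genes tested passed as lower and 2.73% as higher. For CYM-5478 against cisplatin 1.09% passed as lower and 4.53% as higher. Of 11 satellite glia markers 3 were lower and 1 higher with cisplatin, with Kcnj10, a glial potassium channel, at -0.50 (SE 0.083). By sign, 5 of the 11 had a positive and 6 a negative difference. The satellite glia score, made like the pan-neuronal one, differed by -0.075 with overlap (two-sided exact permutation p = 0.0857, not adjusted). The summed FPKM of these markers was 2208 to 2373 in vehicle, 1959 to 2274 in cisplatin and 2053 to 2583 with CYM-5478. Of 8 markers of non-myelinating Schwann cells 2 were lower (L1cam at -0.52 and Cdh2 at -0.33), with sums of 1494 to 1923, 1633 to 1912 and 1365 to 1817 FPKM. By sign, 4 of the 8 were positive and 4 negative with cisplatin. Their score, made in the same way, differed by -0.085 with overlap (two-sided exact permutation p = 0.314, not adjusted). Of 12 myelinating Schwann markers 0 passed with cisplatin by limma (all 12 had a positive difference), with sums of 19634 to 27874, 25074 to 31140 and 19012 to 26580. Fibroblast markers summed to 3252 to 4192, 4543 to 5455 and 3686 to 3907 FPKM, and 3 of 10 passed as higher with cisplatin. The fibroblast score, made like the pan-neuronal one, differed by 0.31 for cisplatin against vehicle and by -0.30 for CYM-5478 against cisplatin. Neither comparison had overlap in this score (two-sided exact permutation p = 0.0286 each, not adjusted). For CYM-5478 against cisplatin the calls were 1 higher among satellite glia markers (Aldoc), 2 higher among non-myelinating Schwann markers (L1cam and Cdh2), 1 lower among myelinating Schwann markers (Ncmap) and 1 lower among fibroblast markers (Pdgfra). Of 8 endothelial markers Cldn5 passed in both comparisons (0.34 and -0.39), of 4 mural markers Rgs5 passed in the second (-0.42), and of 8 macrophage, 8 skeletal muscle and 7 neutrophil markers 0 passed limma's test. All tested markers of these lists, and all 10 of fibroblasts, had a positive difference for cisplatin against vehicle. For CYM-5478 against cisplatin all were negative except 1 macrophage marker. The part of these cells in the receptor results was not tested.

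Other receptors of the GDNF family were near 0. Gfra4, the persephin coreceptor, was at most 0.553 FPKM and Gfral, the receptor of GDF15 and normally of the brainstem, at most 0.0665.

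Of 9 ligands 6 passed the filter, and 0 of them passed the test for cisplatin against vehicle (median log2 difference 0.06, and -0.33 for CYM-5478 against cisplatin). Nrtn, the neurturin that Gfra2 binds, was 3.56, 4.67, 4.70 and 3.74 FPKM in vehicle, 6.42, 4.72, 6.53 and 6.50 in cisplatin, and 4.16, 4.76, 3.81 and 2.93 in the CYM-5478 group. It was 0.48 higher in cisplatin than in vehicle on the log2 scale (limma adjusted p = 0.0556) with no overlap. For CYM-5478 against cisplatin its log2 difference was -0.57 (SE 0.15, limma adjusted p = 0.0457), and cisplatin replicate 2 overlapped. That call was lost without cisplatin replicate 1, 3 or 4, vehicle replicate 1, 3 or 4, or any 1 of the CYM-5478 libraries. Bdnf, made by some sensory neurons, ran from 1.40 to 2.15 FPKM in vehicle, 1.07 to 1.44 in cisplatin and 1.39 to 2.41 with CYM-5478. Artn, Pspn and Gdf15 lay under 4 FPKM in all libraries, and Pspn had the smallest p of the ligands between CYM-5478 and vehicle (-0.85, limma adjusted p = 0.755). Ntf3 and Ntf4 did not reach 0.5 FPKM in any library, and Gdnf was listed at 0 in all vehicle and cisplatin libraries.

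**Figure D5:**
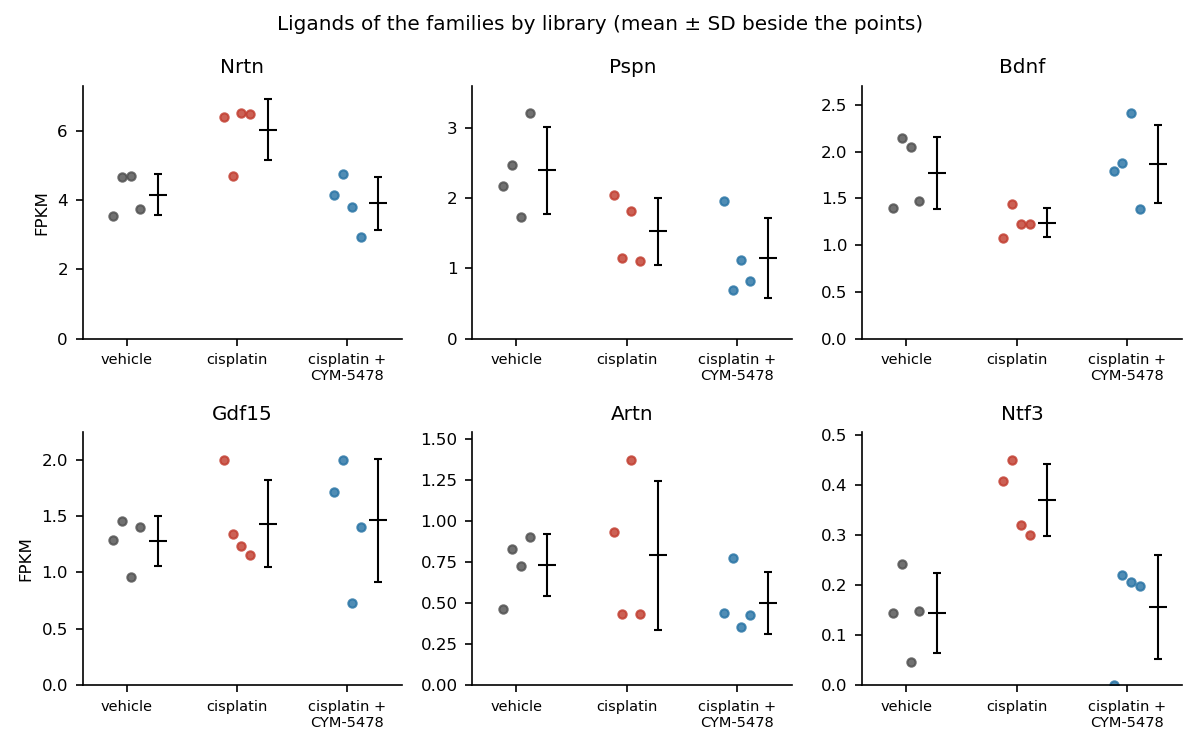
FPKM (vertical axes, from 0) of 6 ligand genes in the 12 libraries, by group, with mean ± SD (n = 4) beside the points. Of the cisplatin points of Nrtn, 3 lie near 6.5 FPKM, above all others.

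Signalling partners of the receptors were mostly not called. Among 19 coreceptors and membrane modulators 3 were lower and 1 higher with cisplatin, and 2 were higher with CYM-5478 than with cisplatin alone (median log2 difference -0.02 and 0.01). Sorl1, a sorting receptor, was -0.54 and 0.48 in these comparisons (SE 0.097 for both), Kidins220, a membrane scaffold that Trk kinases phosphorylate, -0.21 and 0.22 (SE 0.046), and Lrig3 0.25 higher with cisplatin (SE 0.068). Of 41 adaptors and effectors 6 were lower and 0 higher with cisplatin, and 4 were higher with CYM-5478 (median -0.02 and 0.000175). Rasgrf1, an activator of Ras, was -0.50 and 0.46 (SE 0.11), Dok6, an adaptor of Ret, -0.63 with cisplatin (SE 0.13) and Shc2, a neuronal adaptor of Trk kinases, 0.52 with CYM-5478 (SE 0.11).

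Of 13 partners and effectors of p75, the stress kinases Mapk10 and Mapk8 were lower with cisplatin (-0.60, SE 0.13, and -0.30, SE 0.071), and Mapk10 was 0.59 higher with CYM-5478 (list median -0.07 and 0.02). Of 20 targets and feedback inhibitors of receptor signalling only Spry1, an inhibitor of receptor tyrosine kinase signalling that restrains Ret in the developing kidney of the mouse, passed. It was 0.47 higher with cisplatin than with vehicle (SE 0.076, limma adjusted p = 0.0170) and -0.29 with CYM-5478 against cisplatin (SE 0.076, limma adjusted p = 0.0497), beside list medians of -0.04 and -0.05. The shares called in these lists can be read against the 10.7% and 5.62% of all genes.

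Among 14 transcription factors of the neuron classes that these receptors mark, 6 were lower with cisplatin and 2 higher with CYM-5478 than with cisplatin alone (median -0.37 and 0.26). They include Pou4f1, a general sensory neuron factor (-0.80 and 0.65, SE 0.13), Prdm12, needed for pain neurons in mouse (-0.82 and 0.71, SE 0.16), and Mafa, of Ret touch neurons in mouse (-0.68, SE 0.15). Of 13 nociceptor genes 2 were lower with cisplatin (Trpa1 -0.62, SE 0.10, and Calca -0.58, SE 0.14) and 6 higher with CYM-5478, with Trpa1 at 0.70, Calca at 0.81 and Tac1 at 0.62 (list median -0.44 and 0.56). Of 12 genes of touch neurons and proprioceptors 4 were lower with cisplatin, including the sodium channels Scn8a (-0.83, SE 0.17) and Scn1a (-0.83, SE 0.18), and 2 higher with CYM-5478, Scn8a (0.67) and the potassium channel Kcnc1 (0.61), with list medians of -0.31 and 0.32. None of the tested genes of these lists passed limma's test for CYM-5478 against vehicle. All 29 calls that the naming rule picked from the lists for cisplatin against vehicle were lost without vehicle replicate 2 or cisplatin replicate 4. The 25 picked for CYM-5478 against cisplatin were lost without vehicle replicate 1, cisplatin replicate 1 or 4, or CYM-5478 replicate 2, 3 or 4, and 9 of them were lost without vehicle replicate 3.

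The genes most like each receptor over the 12 libraries differed between receptors. Pearson's r over the 12 libraries was 0.991 between Ngfr and Acot7 (0.969 after group means were taken out), 0.988 between Ret and Dpp3 (0.967) and 0.957 between Ntrk2 and Dagla (0.843). Gfra3 was most like Dusp26 (0.948, and 0.795 within groups) and Ntrk3 most like Naa20 (0.947 and 0.933). For Gfra2 and Gfra1 the nearest were Arf1 (0.866 and 0.892) and Slc25a28 (0.853 and 0.833). Each is the highest over all genes compared, so these values are descriptions of 12 libraries only.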

How the data were processed

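Ribosomal RNA was depleted from total RNA of rat dorsal root ganglia and directional libraries were made, per the labels' protocols. Transcript FPKM of the 12 libraries stood in 1 table deposited by the authors. The submitters' processing notes name STAR 2.7.8a, Bowtie2 2.0.6, DESeq2, FastQC, bcl2fastq 2.20 and the build Rnor_6.0 without a role, and which program gave the FPKM is not given in the sources used here. The table was smaller than its listed size, so transcripts may be missing from it. No counts were used, so no counting interval can be given.

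FPKM were summed per gene and scaled by median ratios, for which genes averaging at least 1 FPKM were used (factors 0.998 to 1.01). Genes averaging at least 0.5 FPKM were tested with limma 3.58.1 in R 4.3.3 on log2(FPKM + 0.5), which understates changes of low genes. The 3 groups were fitted to all 12 libraries (residual degrees of freedom, 9) with a variance trend, with Benjamini-Hochberg adjustment over all genes tested. Transcripts were fitted in the same way. Single values were compared by two-sided exact permutation. The workflow was tested on simulated data in which each gene varied independently, so variation shared by many genes was not covered. p-values measure the spread between these rats.

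The receptors and the gene lists were chosen with earlier results of these data known. Of 247 listed symbols, 240 were found as written and 4 through a synonym, and 3 were not analysed here. Some listed genes are not reported here. The naming rule took all 7 receptors and their transcripts, up to 3 genes of smallest p past the threshold from each list and comparison (where none passed, up to 1), and the genes most like each receptor. Lists also covered markers of endothelial, mural and macrophage cells. Replicate numbers are those of the descriptions, which differ from those in the titles. The alternatives tried were quantile normalization, TPM, leaving the values unscaled, pseudocounts of 0.1 and 1, a filter at 2 FPKM or none, array weights, robust variances, the 8 libraries of a comparison alone, each numbering as a block, a covariate for the pan-neuronal score and each library left out in turn. Leaving out cisplatin replicates 2 and 3 or CYM-5478 replicates 2 and 3, and the ratios of receptors, were added after seeing the data. Promoter sequences came from RefSeq (GRCr8), for 3 of the 7 receptors, and no coordinates of the authors' build are given.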

Additional observations from a re-analysis of the deposited data

Results flagged for a closer look

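In 78 groups of 4 libraries (receptors, transcripts of Ntrk3 and Gfra1, Gfra4, Gfral, ligands and the pan-neuronal score), 8 values stood apart from the other 3 of their group by Dixon's criterion. Chance gives about 1 in 20 groups. Among the receptors, Ngfr was 156.4 FPKM in vehicle replicate 2 (others 123.5 to 126), Ntrk2 was 18.3 in cisplatin replicate 3 (others 15.0 to 15.6) and Gfra2 was 42.7 in cisplatin replicate 2 (others 37.4 to 37.7). Among the ligands, Nrtn was 4.72 FPKM in cisplatin replicate 2 (others 6.42 to 6.53), Ntf4 was 0.0521 in vehicle replicate 2 (others 0) and 0.108 in cisplatin replicate 2 (others 0.0541 to 0.0577), and Ntf3 was 0 in CYM-5478 replicate 1 (others 0.199 to 0.219). Gfral was 0.0391 FPKM in CYM-5478 replicate 2 (others 0). The values under 0.3 FPKM are near the lowest steps of the table.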

How the results depend on the processing

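Both pseudocounts, the stricter filter and robust variances kept the direction of every receptor and the counts of calls within 1.5 times. FPKM without depth limits what can be said of low genes. For cisplatin against vehicle and CYM-5478 against cisplatin, limma called 3274 and 2545 genes on the TPM scale, where Gfra1 was -0.057 and 0.038, Gfra2 -0.11 and 0.10, and for CYM-5478 against vehicle Ret was -0.0068 and the pan-neuronal score -0.012. With the 8 libraries of a comparison alone, 1019 genes, 3 receptors (Gfra3 was lost, limma adjusted p = 0.0587) and 2 receptor transcripts were called for cisplatin against vehicle, 0 genes, receptors and transcripts for CYM-5478 against cisplatin, and 1 gene for CYM-5478 against vehicle, where Gfra2 was 0.0019. Without a filter, 3 receptor transcripts were called in the first comparison, and 2 genes, 0 receptors and 0 transcripts in the second. Without scaling, 0 receptor transcripts were called in the second, and the pan-neuronal score for CYM-5478 against vehicle was -0.0036. With array weights, 452 genes, 3 receptors (Ntrk2 was lost, limma adjusted p = 0.0516) and 0 receptor transcripts were called in the second, Gfra2 was -0.00897 in the first, and for CYM-5478 against vehicle Ret was -0.036 and Gfra1 0.0022. With quantile normalization Ret was -0.012 and Gfra2 0.0027 for CYM-5478 against vehicle. With a covariate for the pan-neuronal score, 0 genes, receptors and transcripts were called by limma in the first 2 comparisons (1392 and 810 genes at an unadjusted p under 0.05), and Ntrk3 was 0.074 and -0.11. The causes were not tested, except that fits of 8 libraries have fewer samples.

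Correlations did not show that the replicate numbers pair the rats, but 12 and 7 pairs of libraries cannot exclude it. Deviations of same-numbered libraries correlated at -0.24 to 0.154 over 12 pairs by description and -0.11 to 0.142 over 7 pairs by title, with 1 pair over 0.1 each. With the description number as a block, 1881 genes and 3 receptors were called for cisplatin against vehicle (Gfra3 was lost, limma adjusted p = 0.0501) and 1304 genes and 4 receptors for CYM-5478 against cisplatin. With the title number as a block, 0 genes, receptors and transcripts were called in both, and for CYM-5478 against vehicle Gfra1 was 0.059 and Gfra2 0.068.

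Of the alternatives added after seeing the data, leaving out cisplatin replicates 2 and 3 gave Gfra2 at -0.047, 0.048 and 0.000598 in the 3 comparisons. Leaving out CYM-5478 replicates 2 and 3 gave 0 genes, receptors and transcripts for CYM-5478 against cisplatin, and for CYM-5478 against vehicle 1 gene and Ret at -0.13.

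Leaving out each library in turn gave 0 to 1846 genes called for cisplatin against vehicle, 0 to 1088 for CYM-5478 against cisplatin and 0 to 2 for CYM-5478 against vehicle. Receptors called ran from 0 to 5 and from 0 to 4 in the first 2 comparisons, and receptor transcripts likewise from 0 to 5 and from 0 to 4. Gfra2 ran from -0.098 to 0.066, from -0.067 to 0.048 and from -0.10 to 0.060 in the 3 comparisons, and the pan-neuronal score from -0.63 to -0.43, from 0.44 to 0.63 and from -0.078 to 0.075. For CYM-5478 against vehicle, Gfra1 ran from -0.057 to 0.024, Ngfr from -0.12 to 0.017, Ntrk3 from -0.074 to 0.0050 and Ret from -0.093 to 0.074. In that comparison the log2 ratio of Ret to Gfra1 ran from -0.11 to 0.077, of Ret to Gfra2 from -0.030 to 0.053, of Ngfr to Ntrk2 from -0.037 to 0.092 and of Ngfr to Ntrk3 from -0.071 to 0.025.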
